A study of Mus musculus with 32 samples.

Results

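Enteric neurons of the small intestine (SI) of mice from the University of Bern were compared with those of mice from the Francis Crick Institute. The comparison took the 8 of 32 libraries whose column names mark EGFP-positive nuclei of the SI, 4 from Bern and 4 from the Crick, and every gene in the deposited table. All mice were C57BL/6, were kept specific-pathogen-free, and had received AAV9-CaMKII-EGFPKASH into a vein, a viral vector whose CaMKII promoter drives EGFP anchored to the nuclear envelope. After 5 weeks the outer muscle of the gut was stripped with its myenteric plexus, and EGFP-positive nuclei, called neuronal in the labels, were sorted from EGFP-negative ones. The other 24 libraries hold EGFP-negative nuclei of the SI and both kinds of nuclei of the colon. Both groups carried the vector, and the promoter sets which neurons enter the sort. The labels do not say whether a library is 1 mouse or a pool, or whether segments and sorts came from the same mice, so a p-value measures only the spread between these libraries, which may be technical. Facility, its mice and any step carried out separately for each facility cannot be told apart.

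The myenteric plexus lies between the muscle layers of the gut and drives its movements. Its excitatory motor neurons use acetylcholine and tachykinins, and its inhibitory motor neurons use nitric oxide and vasoactive intestinal peptide (VIP). Neurons release transmitter when SNARE proteins such as SNAP25 and VAMP1 fuse vesicles with the membrane, and immediate early genes are the genes that a stimulated cell transcribes first, from factors already present.

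The unit of level is CPM, a count divided by its library total after adjustment by the trimmed mean of M values, so it is not corrected for gene length. Bern libraries held 2394481 to 4581603 counts each, and Crick libraries 4417724 to 8192655. At an equal depth of 2394481 counts, 18435 to 21471 genes were above 0 in the Bern libraries and 24466 to 27922 in the Crick libraries, without overlap (exact two-sided permutation p = 0.0286, the smallest that 4 against 4 libraries allow, 0.0857 after Benjamini-Hochberg adjustment over 6 library measures). Mitochondrial transcripts took 2.75% to 6.82% of the counts in Bern and 2.76% to 15.99% in Crick, with Crick 2 highest. Xist, transcribed from the inactive X chromosome of females, was at 8893 and 7040 CPM in Bern 3 and Bern 4 and at 5801 CPM in Crick 4, and at no more than 12.5 CPM in the other 5 libraries. Neuronal markers were far higher in the EGFP-positive nuclei: the RNA-binding protein gene Elavl4 averaged 608 and 359 CPM in Bern and Crick SI neurons, against 15.99 and 8.39 CPM in the EGFP-negative nuclei of the same facilities. The intermediate filament gene Prph averaged 404 and 394 CPM in the neurons and 2.71 and 8.65 CPM in the EGFP-negative nuclei. Neurons and EGFP-negative nuclei were scaled in separate fits, so ratios between their levels are approximate.

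In Bern SI neurons 99 genes were higher and 20 were lower than in Crick SI neurons, and these were 0.568% and 0.115% of 17419 genes tested (edgeR's quasi-likelihood test, Benjamini-Hochberg adjusted p under 0.05, 119 genes or 0.683% in all). Genes of neurotransmitter release, cell adhesion and the nerve terminal were among the higher ones with the highest levels: Snap25, L1cam, Negr1, Nrg3, Syn1, Vamp1 and Stmn2. The transcription factor gene Egr1 had the largest change among the named higher genes, and the lower genes included Ahnak, Kidins220, Lmo7, Apob and a cluster of predicted genes on chromosome 4. The median log2 fold change of all genes tested was 0.03, so both directions are read against a centre near 0. At an unadjusted p under 0.05 there were 1960 genes (11.3%), and in 1660 genes (9.53%) the 4 Bern and the 4 Crick libraries did not overlap. Of the 119 genes past the threshold, 114 had no overlap. Genes named by size or level had to have none, so their separation is not added support.

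Those counts rest on single libraries. With each of the 8 libraries left out in turn, 11 to 126 genes passed, 11 of them without Crick 1, 24 without Crick 4, 27 without Crick 3, 41 without Bern 1, 44 without Bern 2, 65 without Bern 3 and 78 without Crick 2. The genes that passed in each of these 8 fits numbered 11. Of these, 6 were higher (Snap25, Sync, Egr1, Gm10048, Gm17258 and ENSMUSG00000100348) and 5 were lower (Ahnak, Gm13301, Gm5859, Gm17167 and Gm10600). Scaling by the upper quartile, which moved the median of all genes to -0.18, left 28 higher and 18 lower, so the share of higher genes was 60.9% in place of 83.2%.

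**Figure D1:**
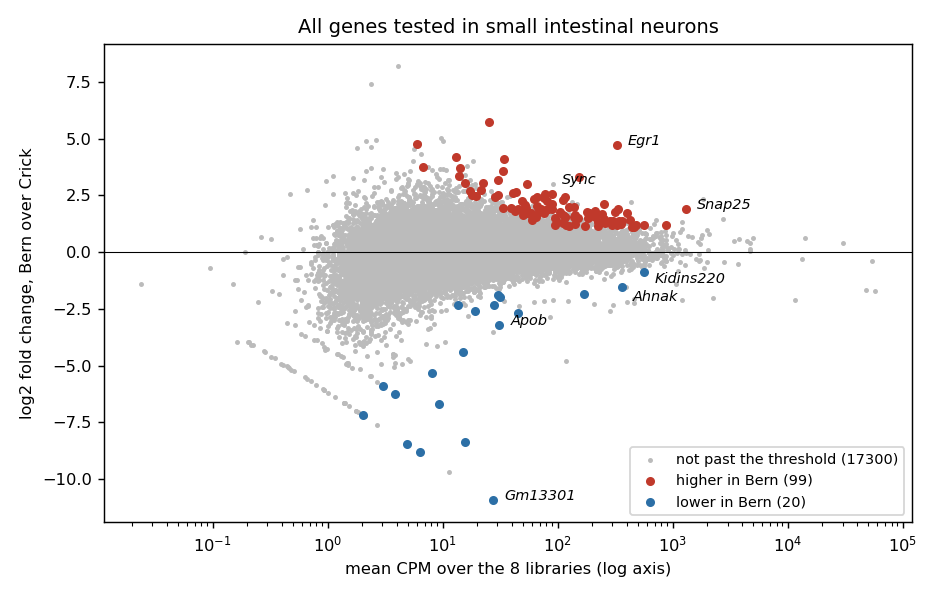
Each point is 1 of the 17419 genes tested in SI neurons, with mean CPM over the 8 libraries on a log axis and the log2 fold change of Bern over Crick on the vertical axis. The 99 genes higher in Bern are red, the 20 lower in Bern are blue, and fitted values of genes at 0 in a group depend on the prior count.

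Among genes of transmitter release, Snap25 had the smallest adjusted p. Snap25 (ENSMUSG00000027273, chr2:136713453-136782428 on the plus strand, GRCm38) encodes the SNARE protein of the presynaptic membrane. It was at 2105, 2146, 2291 and 1771 CPM in the Bern libraries and at 583, 411, 654 and 564 CPM in the Crick libraries. Every Bern library was above every Crick library, as the rule for naming genes requires. The means were 2078 ± 220 CPM in Bern and 553 ± 102 CPM in Crick (SD, n = 4 each), a log2 fold change of 1.91 ± 0.24 (SE, edgeR adjusted p = 0.000284).

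Syn1, whose product synapsin tethers vesicles to each other and to the cytoskeleton, was at 272, 377, 228 and 367 CPM in Bern and at 76.6, 153, 74.4 and 73.2 CPM in Crick. The groups did not overlap, and Crick 2 stood above the other Crick libraries. The log2 fold change was 1.72 ± 0.34 (SE, edgeR adjusted p = 0.0197), and the gene passed in 4 of the 8 fits that left out a library. Vamp1, the SNARE gene of the vesicle membrane, had 502, 451, 414 and 372 CPM in Bern and 156, 196, 129 and 198 CPM in Crick (log2 fold change 1.35 ± 0.26, adjusted p = 0.0162). Again no library overlapped. Snap25, Syn1 and Vamp1 were the 3 of 30 tested members of the synaptic vesicle and release list that passed, all higher, beside 0.568% of all genes. The list's median log2 fold change was 0.34, against 0.03 over all genes, and its summed level was 10404 to 12429 CPM in Bern and 6558 to 9438 CPM in Crick.

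Members that did not pass spread to both sides. Syp, the vesicle membrane protein synaptophysin, had a log2 fold change of 1.07 (edgeR adjusted p = 0.183), Vamp2 one of 0.80 (0.422) and the calcium sensor Syt1 one of 0.28 (0.723). Rims2 and Erc2, genes of the active zone where vesicles dock, had -0.58 (0.510) and -0.53 (0.487). In all 21 members were positive and 9 negative.

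**Figure D2:**
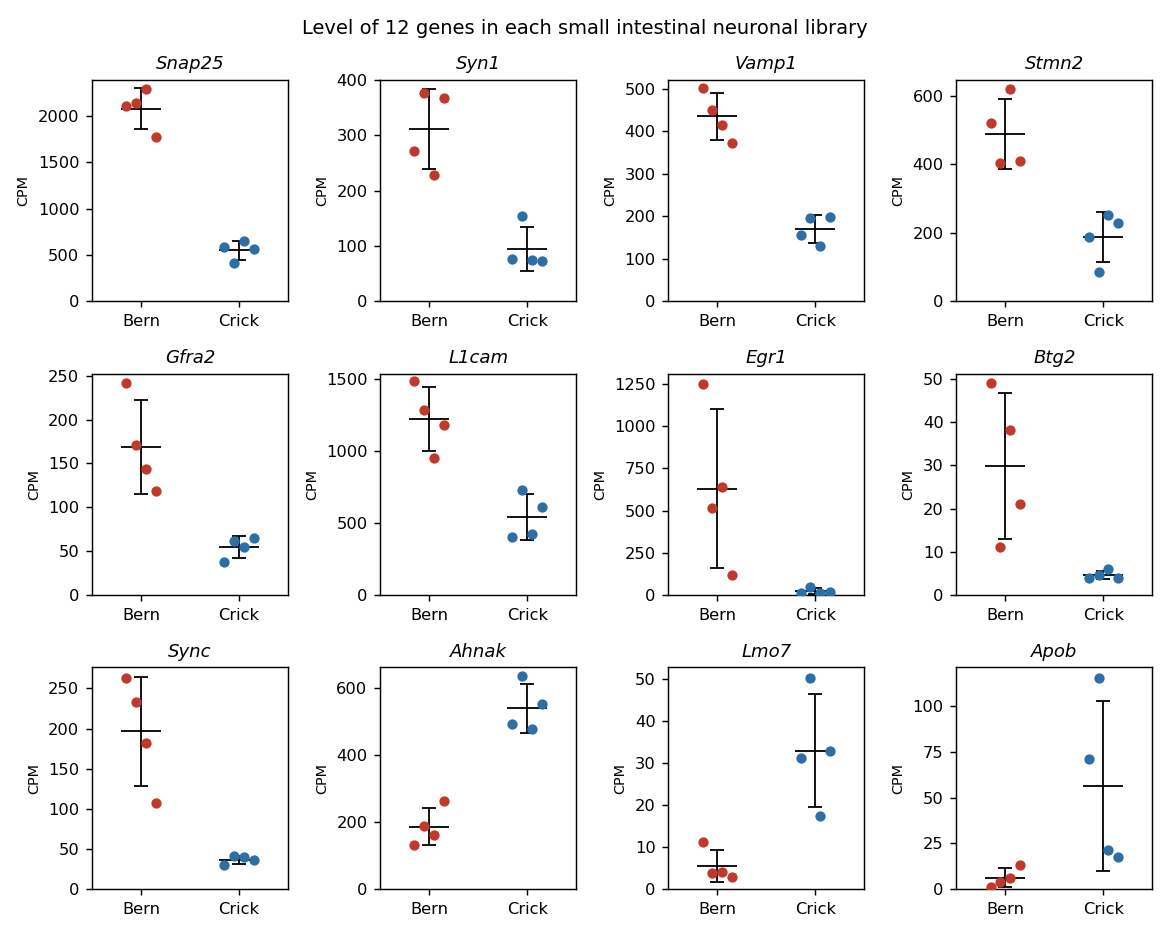
Level in CPM of 12 genes in each library of SI neurons, with Bern left (red) and Crick right (blue); the long bar is the mean and the error bar ± 1 SD over 4 libraries. The first 9 genes were higher in Bern and Ahnak, Lmo7 and Apob were lower. No Bern library overlaps a Crick library in any panel, as in 114 of all 119 genes past the threshold.

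Among pan-neuronal genes 2 of 20 tested were higher and none lower, Snap25 and Stmn2, beside 0.568% higher and 0.115% lower of all genes. Stmn2, which encodes the microtubule regulator stathmin 2 of growing axons, was at 522, 403, 621 and 410 CPM in Bern and at 189, 86.5, 252 and 229 CPM in Crick. The libraries did not overlap, with a log2 fold change of 1.37 ± 0.30 (SE, edgeR adjusted p = 0.0329), but the gene passed in only 1 of the 8 fits without a library. Uchl1, a neuronal deubiquitinase gene, had 414, 271, 181 and 209 CPM in Bern and 72.4, 133, 101 and 121 CPM in Crick and just missed the threshold (1.33 ± 0.32, adjusted p = 0.0560). Together the 20 genes summed to 12209 to 13508 CPM in Bern and 6991 to 8675 CPM in Crick, and its median log2 fold change was 0.34. The long non-coding RNA Snhg11 and Snap25 hold much of that sum. Other members were near 0, such as Prph at 0.04 and Map2, a dendrite microtubule gene, at -0.21, and 4 of the 20 were negative. In bulk nuclei fewer cells of a type and less RNA per cell cannot be told apart, so these levels do not separate a change in the mix of neurons from a change within them.

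Of the named higher genes with the highest levels, L1cam, a cell adhesion gene of axons, was at 1480, 1281, 947 and 1177 CPM in Bern and at 404, 731, 420 and 608 CPM in Crick, with no overlap (log2 fold change 1.17 ± 0.27, SE, edgeR adjusted p = 0.0461). Negr1, an adhesion gene of the immunoglobulin family, Nrg3, an ErbB4 ligand gene, and Ppm1h, a phosphatase gene, had log2 fold changes of 1.20, 1.11 and 1.12. Each of these 4 passed in 1 of the 8 fits without a library, except Ppm1h, which passed in 4.

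No gene passed among 25 sodium, calcium and HCN channel genes (3 at an unadjusted p under 0.05), 22 glutamate and GABA receptor genes (4) or 37 axon guidance and adhesion genes (3), and neither DESeq2 nor limma-voom called one in these 3 lists. Of 28 receptor genes for acetylcholine, monoamines, peptides and opioids none passed in edgeR and 4 had an unadjusted p under 0.05. DESeq2 called 1 of the 28, beside 397 of all 17237 genes.

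Gfra2, which encodes the co-receptor that presents neurturin to the receptor tyrosine kinase RET, was at 242, 171, 143 and 119 CPM in Bern and at 37.2, 61.4, 54.3 and 65.0 CPM in Crick. The groups did not overlap (log2 fold change 1.63 ± 0.31, SE, edgeR adjusted p = 0.0162, passing in 4 of the 8 fits without a library). It was the 1 gene higher among 11 tested genes of RET and endothelin signalling and also the 1 gene higher among 8 cholinergic and tachykinin genes, which share it, beside 0.568% of all genes. Ret itself was at 423, 455, 364 and 374 CPM in Bern and at 229, 320, 237 and 329 CPM in Crick, without overlap, but did not pass (0.54, adjusted p = 0.314). Gfra1, the co-receptor for GDNF, had -0.57 (adjusted p = 0.722).

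Transmitter genes of the motor neuron classes did not pass. All 8 cholinergic and tachykinin genes had a positive log2 fold change, with a median of 0.61. Chat, the acetylcholine synthesis gene, had 0.85 (edgeR adjusted p = 0.324), the enkephalin precursor gene Penk 1.16 (0.152) and the substance P precursor gene Tac1 0.32 (0.790). Of 6 tested nitrergic and VIP genes none passed in edgeR and 1 in DESeq2, which called 397 of all 17237 genes. Vip was at 319, 141, 319 and 104 CPM in Bern and at 87.6, 29.3, 47.0 and 29.0 CPM in Crick, with no overlap and a log2 fold change of 2.20 ± 0.58 (SE, edgeR adjusted p = 0.0894). Nos1, the neuronal nitric oxide synthase gene, had 0.53 (0.466).

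Transcription factors that mark enteric neurons gave no call among 23 tested (edgeR), although 19 had a positive log2 fold change, the median was 0.59 and 7 had an unadjusted p under 0.05. DESeq2 called 2 of them, beside 397 of all 17237 genes, and limma-voom 1, beside 165 of all 17419. Klf7 was nearest to the threshold, with 377, 452, 317 and 338 CPM in Bern and 179, 176, 201 and 240 CPM in Crick (0.90 ± 0.22, adjusted p = 0.0582). The groups did not overlap.

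**Figure D3:**
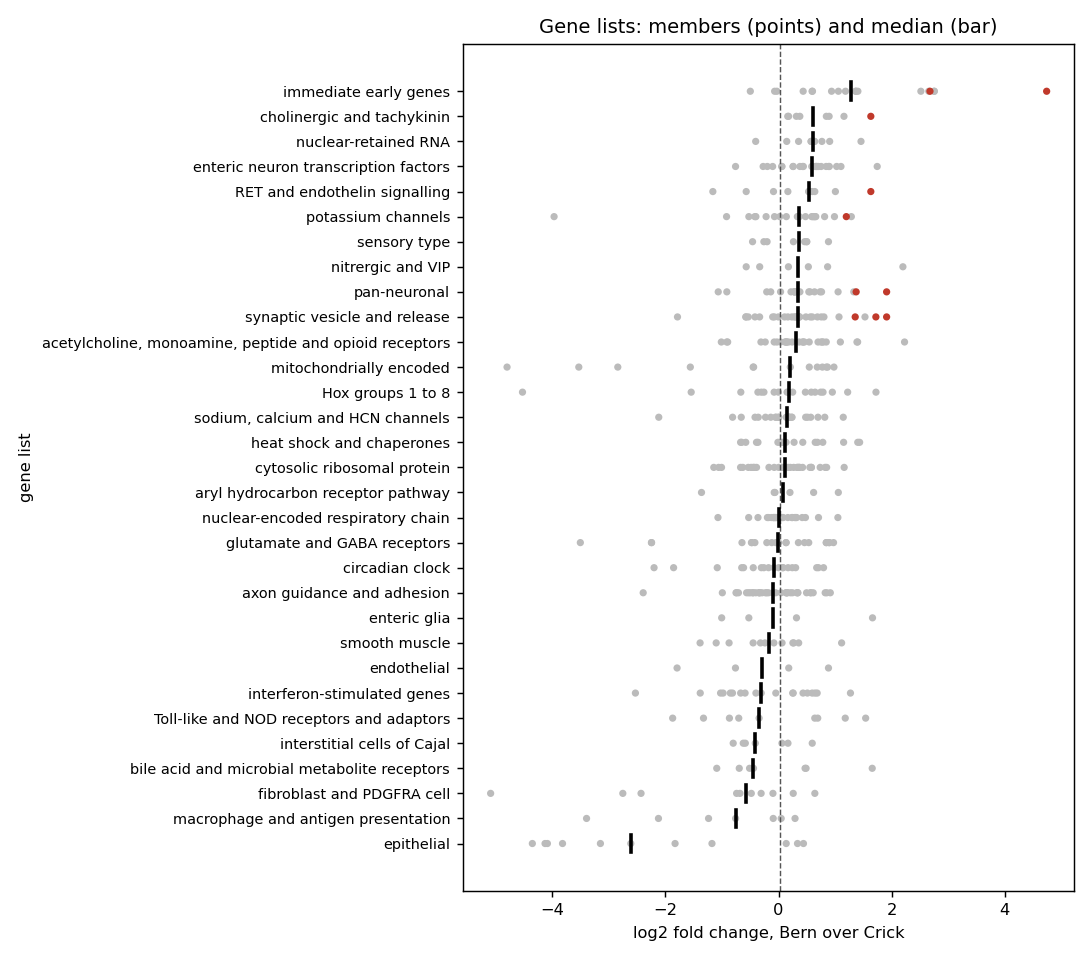
Log2 fold change of Bern over Crick for the tested members of each list with at least 4 of them (points, red where the adjusted p was under 0.05 and the gene was higher in Bern), with the list's median as a bar and the median of all genes as a dashed line. Immediate early genes have the highest median (1.27) and epithelial genes the lowest (-2.61), and most lists have no red point.

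The immediate early genes had the highest median of the lists, 1.27 on the log2 scale against 0.03 for all genes. Egr1 (ENSMUSG00000038418, chr18:34859823-34864984 on the plus strand, GRCm38), a zinc finger factor gene induced by growth factors and by neuronal activity, was at 1248, 514, 638 and 116 CPM in Bern and at 14.9, 49.2, 11.3 and 18.6 CPM in Crick. Even the lowest Bern library was above the highest Crick library, while the Bern libraries differed widely among themselves. The log2 fold change was 4.74 ± 0.72 (SE, edgeR adjusted p = 0.00290). Btg2, an antiproliferative gene of the same response, was at 49.0, 11.2, 38.2 and 21.0 CPM in Bern and at 3.91, 4.71, 5.93 and 4.04 CPM in Crick (2.68 ± 0.59, adjusted p = 0.0339), and passed in 2 of the 8 fits without a library. These groups did not overlap either.

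Egr1 and Btg2 were the 2 of 18 tested immediate early genes that passed, beside 0.568% of all genes called higher, and 15 of the 18 were positive. DESeq2 called 6 of them, all higher, beside 300 higher genes of 17237 in all. Fos, the AP-1 subunit gene, was at 163, 25.7, 82.2 and 12.4 CPM in Bern and at 10.0, 21.9, 8.99 and 4.04 CPM in Crick, so Bern 4 overlapped the Crick libraries (2.65 ± 0.78, edgeR adjusted p = 0.135). Junb had 2.75 (0.0905), the synaptic plasticity gene Arc 2.52 (0.142) and Ier2 2.75 (0.210). Not all members followed: Nr4a1 had -0.03, Jund -0.07 and Fosl2 -0.50. Egr2, Egr3, Egr4, Fosl1, Atf3, Klf2 and Klf4 were too low to be tested. The summed level was 2012, 892, 1162 and 688 CPM in Bern and 198, 513, 188 and 233 CPM in Crick, and Crick 2 stood apart from the other Crick libraries.

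**Figure D4:**
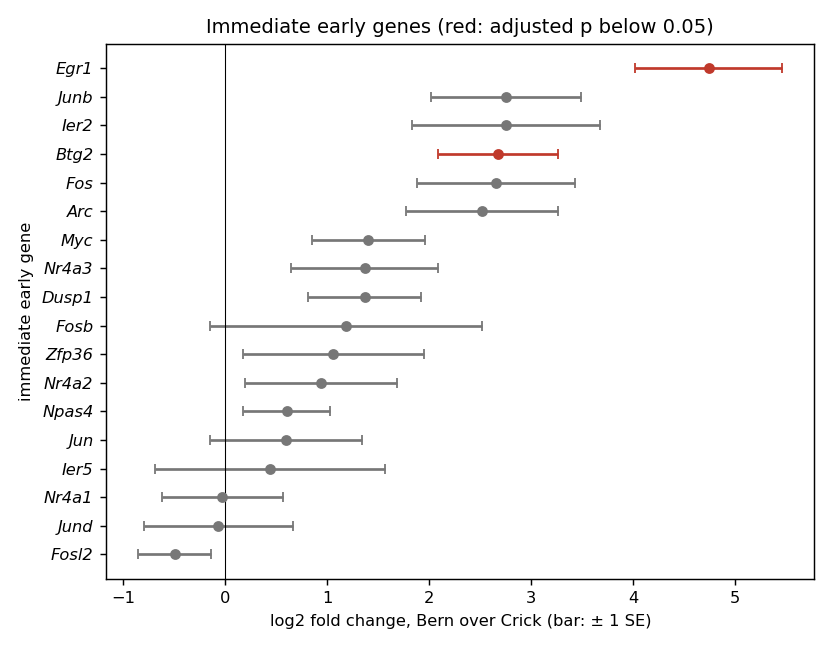
Log2 fold change of Bern over Crick with ± 1 SE for the 18 immediate early genes tested, ordered by size. Egr1 (4.74) and Btg2 (2.68), in red, passed the threshold, and 13 of the other 16 lie above 0.

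The 250 bases before the RefSeq start of Btg2 and of Syn1 hold the palindrome TGACGTCA, the motif known as the cAMP response element. They are printed here because these are called genes from the immediate early and synaptic groups that carry it. Both are on the minus strand of GRCm38.p6 (RefSeq promoter windows), written 5′ to 3′ with the motif in capitals, at chr1:134079156-134079405 and chrX:20920919-20921168.
Btg2: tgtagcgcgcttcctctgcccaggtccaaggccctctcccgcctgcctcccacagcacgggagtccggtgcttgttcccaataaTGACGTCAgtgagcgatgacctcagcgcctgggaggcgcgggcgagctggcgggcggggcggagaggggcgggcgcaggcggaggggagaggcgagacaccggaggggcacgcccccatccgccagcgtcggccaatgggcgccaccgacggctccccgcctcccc
Syn1: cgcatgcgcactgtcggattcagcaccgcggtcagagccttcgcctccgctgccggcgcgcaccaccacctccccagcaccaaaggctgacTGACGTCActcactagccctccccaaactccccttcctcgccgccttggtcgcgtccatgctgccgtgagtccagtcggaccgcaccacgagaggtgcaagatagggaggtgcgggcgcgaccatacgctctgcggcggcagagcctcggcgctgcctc
The first base of the motif lies 166 bases before the RefSeq start in Btg2 and 159 in Syn1. In the annotation used for gene names Syn1 starts at base 20921004, inside the printed window, so its motif is nearer to that start. Searched on both strands, TGACGTCA was in 4 of the 54 genes higher in Bern that had a window (7.41%: Btg2, Csf2ra, Syn1 and Zfand2a), in 0 of 9 lower genes and in 326 of 10919 tested genes with a window (2.99%), and in 1.55% of all 32851 windows. The EGR motif GCGTGGGCG was in 0 of the 54 and in 1.15% of the tested genes, and GCGGGGGCG was in 1 of the 54 (Nlk) and in 5.65% of the tested genes. A match describes these letters in this window.

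Other genes with a large rise had varied roles. Sync, which encodes the intermediate filament protein syncoilin, was at 262, 234, 183 and 107 CPM in Bern and at 29.6, 41.1, 39.4 and 35.5 CPM in Crick. All Bern libraries were above all Crick libraries (log2 fold change 2.43 ± 0.33, SE, edgeR adjusted p = 0.000800). Rab7, the GTPase gene of late endosomes, was at 340, 183, 144 and 143 CPM in Bern and at 48.7, 74.0, 49.3 and 31.8 CPM in Crick (1.99 ± 0.35, adjusted p = 0.00985). Hps1, a gene of lysosome-related organelle formation, had 2.42 (adjusted p = 0.0162), Zfand2a, an arsenite-inducible zinc finger gene, 1.95 (0.0238) and Elfn1, a synaptic adhesion gene, 2.53 (0.0459). The rest of those named by size were Ankmy1 (3.70), Dcdc2b (3.36), Hist2h2aa2 (3.16), Adck5 (2.32), Klhdc8b (2.24), Pdcd5 (2.07) and the ubiquitin ligase gene Cbll1 (2.04). Sync passed in 8 and Rab7 in 6 of the 8 fits without a library, and the other 10 genes of this paragraph in 0 (Pdcd5) to 4. Hist2h2aa2 is a histone gene with a near-identical copy, and its count is uncertain to that extent.

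The lower genes were led in level by Kidins220 and Ahnak. Ahnak (ENSMUSG00000069833, chr19:8989284-9076914 on the plus strand, GRCm38) encodes a very large scaffold protein. It was at 132, 187, 162 and 262 CPM in Bern and at 491, 637, 478 and 551 CPM in Crick, with a wide gap between the groups (log2 fold change -1.54 ± 0.25, SE, edgeR adjusted p = 0.00493). Kidins220, a membrane scaffold gene of neurotrophin receptors, was at 394, 437, 341 and 420 CPM in Bern and at 646, 836, 677 and 780 CPM in Crick, a smaller difference that passed in none of the 8 fits without a library (-0.89 ± 0.21, adjusted p = 0.0486). Rn7sk, the small nuclear RNA that holds back the elongation factor P-TEFb, was at 27.7, 52.7, 76.5 and 141 CPM in Bern and at 374, 370, 146 and 173 CPM in Crick (-1.84, adjusted p = 0.0340). Its groups came close together, with Bern 4 just under Crick 3.

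Among the other named lower genes, Apob, the apolipoprotein of chylomicrons, was at 1.32, 3.52, 6.17 and 13.3 CPM in Bern and at 71.2, 116, 21.4 and 17.3 CPM in Crick (log2 fold change -3.22 ± 0.72, SE, edgeR adjusted p = 0.0394). Npc1l1, the sterol transporter of the enterocyte brush border, was at 0.263, 0.220, 0.411 and 0.619 CPM in Bern and at 12.7, 42.4, 4.59 and 3.78 CPM in Crick (-5.32 ± 1.08, adjusted p = 0.0227). Both were highest in Crick 1 and Crick 2, and they passed in 1 (Apob) and 3 (Npc1l1) of the 8 fits without a library. Lmo7, a gene of epithelial junctions and the nuclear envelope, had a log2 fold change of -2.58 (adjusted p = 0.0179), and the galactokinase family gene Galk2 had -2.35 (0.0411). Nes, the intermediate filament gene of neural progenitors, had 1 count over the Bern libraries and 182 over the Crick libraries, a level 113 times lower in Bern with a 95% counting interval of 20.1 to 4496.

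Epithelial markers were mostly negative too. None of 11 tested epithelial genes passed in edgeR and 6 had an unadjusted p under 0.05. DESeq2 called 2 (397 of all 17237 genes) and limma-voom 1 (165 of all 17419) of these 11 epithelial genes. Their median log2 fold change was -2.61, 8 of 11 were negative and 6 had no overlap, all lower in Bern, beside 4.94% of all genes. The summed level of the 20 markers was 72.3 to 128 CPM in Bern and 106 to 276 CPM in Crick, which overlap (exact two-sided permutation p = 0.200, 0.800 after Benjamini-Hochberg adjustment over 12 lists of other cell types). Sis, the brush border sucrase gene, was at 0.527, 2.20, 2.47 and 1.55 CPM in Bern and at 11.3, 35.1, 7.27 and 6.51 CPM in Crick, and the adhesion gene Epcam at 0.263, 0.220, 0 and 0.619 CPM in Bern and at 9.54, 4.89, 1.91 and 1.17 CPM in Crick. In Bern 3 of the 20 markers were at 0 in all libraries, in Crick none. Fewer genes of any kind were above 0 in Bern, on average 20182 a library against 25947 in Crick at equal depth. These zeros are thus not particular to epithelial markers. The part of epithelial RNA in the lower Apob and Npc1l1 was not tested.

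Other cell types gave no difference in summed level past the exact permutation test. Its smallest possible p is 0.0286, so after adjustment over 12 lists a single list could not pass even without overlap. The test therefore does not show equal levels. Macrophage and antigen presentation markers summed to 22.6 to 38.2 CPM in Bern and 32.7 to 64.8 CPM in Crick (exact permutation p = 0.0571, 0.514 adjusted), with 0 of 7 tested genes called and 1 at an unadjusted p under 0.05. Smooth muscle markers summed to 690 to 1436 CPM in Bern and 629 to 1337 CPM in Crick, interstitial cell of Cajal markers to 915 to 2909 and 1434 to 2326 CPM, and glial markers to 21.4 to 40.3 and 19.8 to 35.8 CPM. Neither edgeR nor DESeq2 nor limma-voom called a gene in these 4 lists (0 to 2 genes of each at an unadjusted p under 0.05). The same held for 10 tested fibroblast markers (4 at an unadjusted p under 0.05). Of these 10 markers 8 were negative, and 4 had no overlap, 1 of them higher in Bern, beside 9.53% of all genes. Nor was a gene called among 4 endothelial and 2 lymphocyte markers, or the single tested mesothelial, pancreatic acinar, erythroid and skeletal muscle or adipose markers.

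Microbiota states are named in the design text, and the lists given next, of genes linked to microbes or interferon, gave no call in edgeR, DESeq2 or limma-voom. The interferon-stimulated list does not hold Ifi203 or Mndal, which were higher in Bern (log2 fold change 1.56 and 1.74, edgeR adjusted p = 0.0238 and 0.0493). Ifi203 and Mndal overlap on the same strand, so they may share reads. None of 6 aryl hydrocarbon receptor pathway genes, 9 Toll-like and NOD receptor and adaptor genes or 7 bile acid and metabolite receptor genes had an unadjusted p under 0.05, and 1 of 19 interferon-stimulated genes did. Ahr itself had 25.3, 25.5, 4.93 and 1.86 CPM in Bern and 11.5, 7.24, 12.4 and 6.90 CPM in Crick, which overlap (log2 fold change 0.62, adjusted p = 0.733). Many members were too low to test, among them Cyp1a1, at 0 in all 4 Bern libraries, where fewer genes of any kind were above 0. The 19 circadian clock genes and 18 heat shock genes gave no call in edgeR, with 2 of each at an unadjusted p under 0.05. The same held for 24 nuclear-encoded respiratory chain genes (0 at an unadjusted p under 0.05), 13 mitochondrially encoded genes (2; without Crick 2, 3 of them passed as higher and the median log2 fold change was 1.63 in place of 0.21), 30 cytosolic ribosomal protein genes (1), 8 sensory type genes (0), 5 sex-linked genes (0), 19 Hox genes of groups 1 to 8 (3, and 1 called by DESeq2) and 1 of groups 9 to 13 (0). Of 10 nuclear-retained RNAs none passed in edgeR, 6 had an unadjusted p under 0.05, and limma-voom called 1 higher and 1 lower. Over all genes DESeq2 called 397 of 17237 and limma-voom 165 of 17419.

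A stretch of chromosome 4 held 4 of the 20 lower genes, which were chosen after their values were seen. Gm17167, Gm13301, Gm5859 and Gm10600 lie on the plus strand within 35.7 kb (chr4:42206998-42242685, GRCm38), and are annotated as a processed transcript, 2 pseudogenes and a predicted protein-coding gene. Gm13301 had no count in any Bern library and 63.8, 87.2, 38.4 and 30.5 CPM in Crick, at least 257-fold lower in Bern, taking 3 counts over the 4 libraries as the floor. Gm10600 had no count in Bern and 5.63, 27.0, 7.46 and 10.7 CPM in Crick, at least 59.2-fold lower. Bern and Crick were thus fully separate for both.

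Gm5859 had 1 count over the Bern libraries and 726 over the Crick libraries, a ratio of 452 with a 95% counting interval of 80.8 to 17861. Gm17167, which overlaps Gm13301, was present in Bern, at 8.43, 10.5, 18.5 and 10.8 CPM against 60.4, 98.5, 68.8 and 82.5 CPM in Crick (log2 fold change -2.69 ± 0.42, SE, edgeR adjusted p = 0.00341). Outside the SI neurons the 4 genes differed. Gm10600 had no count in any of the 4 libraries of Bern colon neurons, Bern SI EGFP-negative nuclei or Bern colon EGFP-negative nuclei, and a count in all 4 libraries of each matching Crick group. Gm5859 had no count in Bern colon neurons but counts in all 4 libraries of Bern SI EGFP-negative nuclei, where its log2 fold change was -2.03 (edgeR adjusted p = 0.0912), and the difference from that in SI neurons had an adjusted p of 0.0739 (unadjusted p = 4.03e-05). The pseudogenes and predicted genes here may share reads with copies elsewhere, so the count of a single one is uncertain. Farther out on the chromosome Ccl27a and Phf24 were higher in Bern, with log2 fold changes of 1.52 and 1.17 (edgeR adjusted p = 0.0339 and 0.0426). Rmrp, also farther out, was lower in Bern (-2.34, edgeR adjusted p = 0.0486).

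A second stretch, on chromosome 14 (chr14:69337174-69585520, GRCm38), held Entpd4, Gm21451 and Entpd4b, all lower in Bern. Entpd4, which encodes a Golgi nucleoside diphosphatase and is on the list of loci that differ between C57BL/6 substrains, was at 14.8, 16.04, 5.75 and 14.2 CPM in Bern and at 47.7, 63.7, 46.1 and 46.2 CPM in Crick (log2 fold change -1.99, edgeR adjusted p = 0.0337). Entpd4b had the same values as Entpd4 in every Bern library of SI neurons, while Crick 1 and Crick 2 had 44.8 and 55.0 CPM of Entpd4b. In EGFP-negative SI nuclei Entpd4b had a log2 fold change of -2.42 (edgeR adjusted p = 0.0143) and Entpd4 one of -0.76 (0.528), so how reads were divided between these copies is uncertain. The other 7 tested substrain genes did not pass, and 2 of the 8 had an unadjusted p under 0.05. Nnt, which carries a deletion in C57BL/6J, was at 15.5, 16.3, 32.5 and 34.4 CPM in Bern and at 28.1, 6.34, 7.65 and 16.01 CPM in Crick, so the groups overlap (0.76, adjusted p = 0.788). Whether the mice of the facilities are of the same substrain is not stated in the labels.

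By annotated type, 68 of the 99 higher and 11 of the 20 lower genes were protein-coding, beside 13011 of all 17419 genes tested. A further 14 higher genes, and no lower one, were of the annotation type TEC, provisional models awaiting experimental evidence, of which 1523 were tested and 850 had a positive log2 fold change. All 14 lay inside a tested gene, 13 on its strand, and none of the 14 host genes passed. The 14 TEC genes had log2 fold changes of 1.89 to 4.77, and their hosts of -0.31 to 0.79. Gm10048, inside the potassium channel partner gene Kcnip4, was at 446, 348, 457 and 385 CPM in Bern and at 107, 40.9, 122 and 109 CPM in Crick (2.11, edgeR adjusted p = 0.000800), while Kcnip4 had -0.27 (0.896). Gm38243, inside Kcnq5, had 2.57 (0.0339) and Kcnq5 0.37 (0.794). These TEC genes were chosen after their values were seen. Of all 119 genes, 67 overlapped another tested gene, 41 of them on the other strand, and the kit does not mark strand, so such reads cannot be told apart.

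Most of the 99 higher genes had the same direction elsewhere. In colon neurons all 99 were positive for Bern over Crick, beside 51.0% of all genes tested, and 56 passed (56.6% of the 99, and 17.0% of the 330 genes higher there, where 1.89% of all genes were called higher, 1.19% lower and 3.09% in all). In EGFP-negative nuclei of the SI 95 of 98 with a value were positive, beside 51.3% of all genes, and 52 passed (52.5% of the 99, and 12.01% of the 433 higher there among genes tested in both; 2.37% of all genes were called higher there, 4.14% lower and 6.52% in all). Of the 20 lower genes 18 were negative in colon neurons, beside 49.0% of all genes, and 10 passed. All 20 were negative in the EGFP-negative nuclei, beside 48.7%, and 9 passed. The comparisons share no library, but may share mice.

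Genes past the threshold in the SI neurons and in both other comparisons numbered 36 higher and 7 lower, and genes past it in the SI neurons alone 27 higher and 8 lower. Snap25 had 0.93 in colon neurons (adjusted p = 0.0329) and 3.10 in EGFP-negative SI nuclei (0.0250), against 1.91 in SI neurons. Egr1 had 4.15 (0.00542) and 3.01 (0.0308) there, against 4.74. Ahnak had -1.05 (0.0256) and -1.06 (0.0415), against -1.54. All 3 genes thus passed in each of the 3 comparisons. The level of Snap25 in EGFP-negative SI nuclei was low, on average 136 CPM in Bern and 15.8 CPM in Crick. In SI neurons, scaled in a separate fit, Snap25 was at 2078 and 553 CPM. The SE of its log2 fold change there was 0.78, and the source of this RNA was not tested. Btg2, Apob and Npc1l1 did not pass in colon neurons (0.83, -0.51 and 2.12 with adjusted p of 0.422, 0.751 and 0.200).

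**Figure D5:**
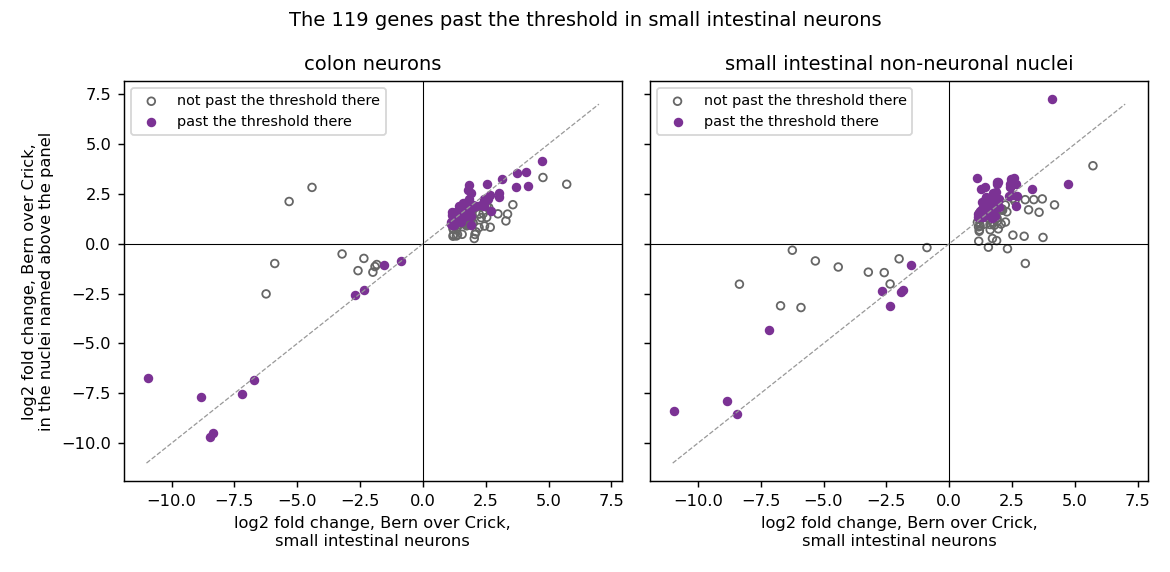
The genes past the threshold in SI neurons, with their log2 fold change of Bern over Crick in SI neurons on the horizontal axis and that in colon neurons (left) or EGFP-negative SI nuclei (right) on the vertical axis; filled points also pass there, and 1 gene has no value in the right panel. Of the higher genes 99 of 99 and 95 of 98 lie above 0, and of the lower genes 18 and 20 of 20 lie below it.

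The difference between comparisons was also tested. The facility difference of SI neurons minus that of colon neurons passed for 1 of 17419 genes in edgeR (0.00574%; 1134 at an unadjusted p under 0.05, 35 in DESeq2 and 2 in limma-voom). That gene, ENSMUSG00000092267, has no match in the annotation used. It had 949, 216, 232 and 497 CPM in Bern colon neurons, none in Crick colon neurons, none in Bern SI neurons and 1.302 CPM in 1 of the 4 libraries of Crick SI neurons. The facility difference of SI neurons minus that of EGFP-negative SI nuclei passed for 0 of 18738 genes in edgeR, with 2273 at an unadjusted p under 0.05, 499 in DESeq2 and 20 in limma-voom. No gene is therefore called particular to the SI neurons here, and a miss at this size does not show that the facility difference is equal in the other nuclei.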

How the data were processed

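Expected counts for every Ensembl gene in 32 libraries were deposited by the authors in 1 table, whose columns are RSEM gene results per the file headers. RSEM 1.3.0, STAR 2.5.2, DESeq2 1.10.1 and the build GRCm38 are named, without roles, per the submitters' processing notes. Per the labels' protocols, nuclear RNA was amplified with the Ovation system and read as 75-base single ends, so strand is not kept. Of the deposited values 10.8% were not whole, and all were rounded. GENCODE M21 matched 51719 of 51912 identifiers.

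The 16 neuronal libraries were fitted together in edgeR 4.0.16 (R 4.3.3) by group, with TMM scaling, filterByExpr and quasi-likelihood tests, and p-values were adjusted over all genes tested (Benjamini-Hochberg, threshold 0.05). The comparison with EGFP-negative nuclei used the 16 SI libraries. An SE was obtained as the absolute log2 fold change over the root of the F statistic. On simulated counts for 16929 genes of the SI neuron comparison, 20.4% of 4-fold and 55.1% of 8-fold changes were recovered, and 2% of 2-fold ones, with 0 false calls. DESeq2 1.42.0 and limma 3.58.1 were alternatives. Intervals and floors (3 counts) cover counting error only.

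Named genes were those past the threshold, with no overlap between Bern and Crick libraries and at least 5 CPM in the higher group, without predicted symbols, mitochondrially encoded genes or markers of other cells: per direction the 14 with the largest change and the 6 with the highest level. Of 119 genes 77 were eligible and 30 met the rule, and some of the genes chosen by it or listed are not reported here. Members of the 39 gene lists may be named too, and other genes were chosen after their values were seen. Members, lists and tests were chosen with earlier results of these data known.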

Additional observations from a re-analysis of the deposited data

Results flagged for a closer look

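In groups of 4 libraries, 170 sets of values were searched for a library far from the other 3, and 19 were found; chance gives about 1 in 20 such groups. Of the 19, 9 were Crick 2, the library with the largest share of mitochondrial transcripts (15.99%). Crick 2 was at 153 CPM of Syn1, 28.6 CPM of Zfand2a, 63.7 CPM of Entpd4 and 55.0 CPM of Entpd4b, above the other Crick libraries each time. Its summed level was 513 CPM for immediate early genes, 6165 CPM for sodium, calcium and HCN channel genes, 23735 CPM for mitochondrially encoded genes and 52.7 CPM for endothelial markers, above the other Crick libraries, and 151 CPM for aryl hydrocarbon receptor pathway genes, below them. Crick 1 stood above the others for Pdcd5 (31.8 CPM) and for the cytosolic ribosomal protein genes (777 CPM).

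Among the Bern libraries, Bern 1 stood above the other 3 for Klhdc8b (266 CPM) and Lmo7 (11.1 CPM), Bern 2 for the summed pan-neuronal genes (13508 CPM) and Gm5859 (0.220 CPM), and Bern 3 for mesothelial markers (6.17 CPM). Bern 4 stood above them for skeletal muscle and adipose markers (17.3 CPM), Gm21451 (0.619 CPM) and Nes (0.309 CPM), the last 2 of which had no count in the other 3 Bern libraries.

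The facility difference of ENSMUSG00000092267 differed between SI neurons and colon neurons by -18.0 on the log2 scale (SI minus colon, edgeR adjusted p = 0.00716), a fitted value that depends on the prior count, since the gene has counts in all 4 libraries of Bern colon neurons and in 1 of the 12 other neuronal libraries.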

How the results depend on the processing

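The count of 119 genes was within 1.5 times under RLE size factors (103), library size alone (95), limma-voom (165), a minimum mean of 5 CPM (106), equal depth (101), no mitochondrial genes (116) and the 8 SI libraries alone (97). It was 46 with upper quartile scaling, 397 with DESeq2, 328 without a filter on low counts, 43 with all 32 libraries fitted, 12 against a fold of 1.5, 39 without Bern 1 and Crick 2, and 11 to 126 with 1 library left out (11 to 81 of the 119 shared). With a replicate block 43 passed (37 higher and 6 lower), but same-numbered libraries shared only a number (r of -0.0129, -0.0601, 0.174 and -0.0513). For the difference from colon neurons, 1 gene passed, against 35 with DESeq2, 2 with limma-voom, 93 without a filter, 0 at equal depth, 0 to 3 with 1 library left out (0 without Crick 4 of the SI neurons) and 1 with a replicate block. For the difference from EGFP-negative nuclei, 0 passed, against 499 with DESeq2, 20 with limma-voom, 232 without a filter, 1 with upper quartile scaling, 1 with a minimum mean of 5 CPM, 32 with all 32 libraries, 1 at equal depth and 0 to 298 with 1 library left out (298 without Bern 1 and 60 without Bern 4 of the EGFP-negative libraries), and 0 with a replicate block. A replicate block within each facility, chosen after seeing the data, gave 1 and 0. Without a filter 4 mitochondrially encoded genes passed as lower. The cause of these changes was not tested. For 43 genes followed through the alternatives, 543 of 945 alternative values were past the threshold, 402 had the same direction but missed it, and 0 reversed. The medians of all genes moved to -0.14 with limma-voom and to -0.49 without a filter. With 4 libraries a group, changes of 2-fold were mostly out of reach, as were genes below a few CPM.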

Other observations

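Long non-coding genes held 16.3% to 18.7% of the counts in Bern SI neurons and 9.99% to 19.5% in Crick SI neurons (exact two-sided permutation p = 0.486). Malat1, a nuclear speckle RNA, was at 49595, 40870, 40817 and 53996 CPM in Bern and at 70629, 56439, 58616 and 59369 CPM in Crick, without overlap but not past the threshold (log2 fold change -0.40, edgeR adjusted p = 0.338). Neat1, the paraspeckle scaffold, was at 1945, 1609, 1267 and 1213 CPM in Bern and at 693, 406, 1062 and 1064 CPM in Crick, also without overlap (0.90, adjusted p = 0.193).

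On chromosome 1 Cadm3, Ifi203 and Mndal were higher in Bern, chosen after their values were seen. Ifi203 and Mndal overlap on the same strand, so they may share reads. Cadm3 does not overlap them, and Ifi203-ps, which lies between, did not pass (log2 fold change 0.64, edgeR adjusted p = 0.803). Cadm3, a synaptic adhesion gene, was at 657, 718, 621 and 472 CPM in Bern and at 203, 157, 305 and 264 CPM in Crick (1.41, edgeR adjusted p = 0.00978). Rmrp, the RNA of the ribonuclease MRP, lies on chromosome 4 and was lower in Bern. It was at 8.43, 6.81, 5.34 and 16.4 CPM in Bern and at 78.8, 58.5, 34.4 and 16.01 CPM in Crick. Bern 4 and Crick 4 overlap (-2.34, adjusted p = 0.0486).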
